A study of Rattus norvegicus with 18 samples.

Results

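Tissue kallikrein and angiotensinogen stand at the heads of 2 opposing vasoactive peptide systems of the kidney, and the array used here carried 1 cDNA clone for each. The clones were those annotated to the symbols Klk1b3 and Agt, 2 of the 2304 clones on the array, each spotted in duplicate. Tissue kallikrein is a serine protease that cuts kininogen to release kinins, peptides that dilate vessels and promote sodium excretion; in the kidney it is made mainly in the connecting tubule. Angiotensinogen is the precursor that renin cuts to angiotensin I, from which converting enzyme makes angiotensin II, a peptide that constricts vessels and retains sodium; the kidney makes it mainly in the proximal tubule.

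RNA of whole kidney was compared in 6 rats that had recovered for 35 days after 52 min of renal ischemia and reperfusion, here ARF rats (the injury causes acute renal failure), and in 6 sham-operated rats. Each of the 6 ARF rats was paired with 1 sham rat (pairs A to F), and each pair was hybridised on 2 two-colour arrays with the dyes exchanged. On 6 further arrays, R1 to R6, sham rats were compared with one another. The labels give no strain, sex or age. The values are log ratios, likely ARF over sham, because the channel order of the arrays with sham in Cy3 reads that way. This direction is assumed and no value tests it. With the opposite convention every ARF-sham log ratio given here would change sign, while correlations between clones would not. No label or header states the base of the logarithm.

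Between 1586 and 2786 of the 4608 spots had a value on an ARF-sham array, and between 914 and 2232 on a sham-sham array. Both clones had values for both spots on all 12 ARF-sham arrays, with none imputed. On the 6 sham-sham arrays they had values for both spots once adjacent blocks of rows were exchanged, an order chosen after the values were seen; in the deposited order Klk1b3 had none there. The test with limma took in the 947 clones that 4 or more pairs had measured in both orientations, of which 9 (0.950%) passed a Benjamini-Hochberg adjusted p of 0.05. Kidney markers of several segments, such as the proximal receptors Lrp2 and Cubn and the thick limb protein Umod, had values in all 6 pairs.

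The Klk1b3 clone is a rat expressed sequence tag, a partial cDNA. RefSeq lists rGK-1 and Klk1 among the other names of this gene, while a separate rat gene carries the symbol Klk1. The gene lies on rat chromosome 1 among closely related kallikrein genes. RefSeq promoters (build GRCr8) were available for Klk1b3 but not for Agt. The stretches below lie upstream of each gene's annotated start and show how alike these selected promoters are. Each was cut around TTTAAA followed by ggctc, and promoters without those bases were not aligned, so those bases match by selection. The capitals mark TTTAAA, which is its own reverse complement and was present in the last 60 bases before the start of 2.78% of 33469 promoters. That rate is for a window fixed at the start and is no background for stretches placed by the motif. Each is given in gene orientation, 5′ to 3′.
Klk1b3, chr1:103845587-103845646, plus strand: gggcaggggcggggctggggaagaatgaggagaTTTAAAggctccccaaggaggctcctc
Klk1c3, chr1:103808048-103808107, plus strand: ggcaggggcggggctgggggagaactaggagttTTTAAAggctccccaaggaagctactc
Klk1c10, chr1:103543637-103543696, minus strand: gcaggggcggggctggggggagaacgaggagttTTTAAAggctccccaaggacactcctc
Klk1c2, chr1:103633008-103633067, minus strand: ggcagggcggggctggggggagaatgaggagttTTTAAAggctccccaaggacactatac

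Over the 60 bases, 53 of 61 aligned positions of Klk1c3 (86.9%), 53 of 62 of Klk1c10 (85.5%) and 51 of 62 of Klk1c2 (82.3%) matched Klk1b3. In all, 8 of the 21 kallikrein promoters in the table held this stretch upstream of the start. The cDNA sequence on the spot was not used here, so which of the related transcripts bound to it cannot be told, and Klk1b3 below means this clone. The only other kallikrein clone, Klk6, had no value on any of the 18 arrays.

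Klk1b3 was lower in ARF kidneys in 5 of 6 pairs. The pair values, each the mean of both spots and both dye orientations, were -0.64 in pair A, -0.88 in B, 0.022 in C, -0.16 in D, -0.35 in E and -0.63 in F. Pairs A, B and F were far below 0, E and D less so, and pair C was at 0. The mean log ratio was -0.44 ± 0.34 (SD, n = 6 pairs), with a 95% limma interval of -0.68 to -0.20. Read as a log2 value that difference is 1.36-fold, as a natural log 1.55-fold, and as a log10 value 2.75-fold. It did not pass over all clones (limma, adjusted p = 0.093), although only 0.317% of the 947 clones had a lower mean and the unadjusted p was 0.0023, ranked 23 among them. An unadjusted p under 0.05 was reached by 139 clones (14.7%). A two-sided exact sign-flip permutation test over the 6 pairs gave p = 0.0625, where 0.03125 is the smallest this number of pairs allows. For comparison, 121 of the 600 clones measured in all pairs (20.2%) were below 0 in 5 or more of 6. Klk1b3 and Agt were chosen with earlier results of these data known. Their p-values here and below are therefore not those of genes chosen in advance.

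Agt was above 0 in 6 of 6 pairs, but 4 of those values were small. They were 0.098 in pair A, 0.43 in B, 0.036 in C, 0.46 in D, 0.050 in E and 0.055 in F. Pairs B and D stood well above the others, which lay within 0.1 of 0. The mean log ratio was 0.19 ± 0.20 (SD, n = 6 pairs), with a 95% limma interval of 0.021 to 0.36. Read as a log2 value that is 1.14-fold, as a natural log 1.21-fold, and as a log10 value 1.54-fold. It did not pass over all clones (limma, adjusted p = 0.28; unadjusted p = 0.031). The two-sided exact sign-flip permutation test gave p = 0.03125, the smallest it can give with 6 pairs, and 27 of the 600 clones measured in all pairs (4.50%) were likewise above 0 in every one. With pairs B and D left out together, a choice made after the values were seen, the mean of the other 4 was 0.060 ± 0.027. In whole kidney RNA, a change in the number of cells that make a transcript and a change in RNA per cell cannot be told apart, which holds for both genes.

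**Figure D1:**
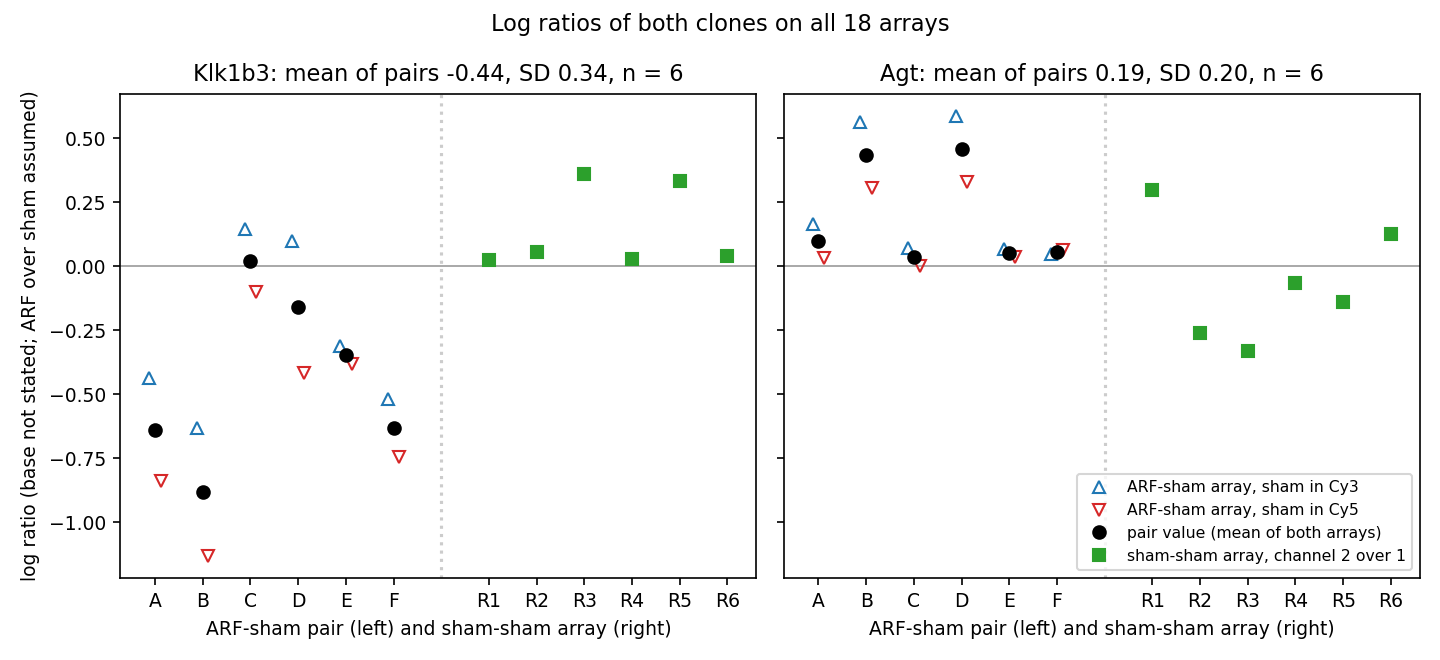
Log ratios (vertical axis, base not stated) of the Klk1b3 and Agt clones on the 12 ARF-sham arrays, by pair A to F, and on the 6 sham-sham arrays R1 to R6. Triangles are single arrays by dye orientation, black circles the pair values and squares the sham-sham arrays; Klk1b3 is below 0 in 5 of 6 pairs, and Agt is high in pairs B and D.

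The duplicate spots and exchanged dyes show how well each pair value was measured. Duplicate spots of Klk1b3 differed by at most 0.17 on any ARF-sham array, which is an SD of 0.065 per spot, and those of Agt by at most 0.19, an SD of 0.071. With sham in Cy3, Klk1b3 had -0.44, -0.63, 0.15, 0.10, -0.31 and -0.52 in pairs A to F. With sham in Cy5 it had -0.84, -1.13, -0.10, -0.42, -0.38 and -0.74. The sign was thus above 0 for pairs C and D in the first orientation and below 0 for every pair in the second. The dye effect, the difference between the orientations divided by 2, was 0.16 ± 0.088 for Klk1b3 and above 0 in 6 of 6 pairs (limma, adjusted p = 0.023). Such an effect passed for 152 of 947 clones (16.1%), and it cancels in the pair values. With sham in Cy3 alone the mean of Klk1b3 was -0.28 (limma, adjusted p = 0.17), and with sham in Cy5 alone it was -0.60 and passed (limma, adjusted p = 0.042).

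No test compared the dye effects of the 2 genes. Agt had a smaller mean dye effect than Klk1b3, and its mean log ratio was smaller in size too. The mean of Agt was 0.25 with sham in Cy3 and 0.13 with sham in Cy5. Its values with sham in Cy3 were 0.16, 0.56, 0.073, 0.59, 0.067 and 0.047 in pairs A to F, and with sham in Cy5 they were 0.033, 0.31, -0.0011, 0.33, 0.034 and 0.063. Pairs B and D were the highest in each orientation. The dye effect was 0.061 ± 0.058, above 0 in 5 of 6 pairs (limma, adjusted p = 0.19).

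The difference between the responses of the genes was taken within each pair, since both were read on the same arrays. Klk1b3 minus Agt was -0.74 in pair A, -1.32 in B, -0.014 in C, -0.62 in D, -0.40 in E and -0.69 in F. It was below 0 in 6 of 6 pairs, by almost nothing in pair C. The mean was -0.63 ± 0.43 (SD, n = 6 pairs). No test is given for this difference, because the genes were chosen with earlier results of these data known. The same choice limits the p-values of each gene alone. The value is a difference between log ratios, not between levels. Over the pairs, the genes had no detectable relation: Pearson's r was -0.21 (n = 6, exact permutation p = 0.62) and Spearman's rho -0.43 (exact permutation p = 0.42), the 1 relation of this kind computed. Without pairs B and C, the farthest from the median of Klk1b3, r was 0.77 over 4 pairs, so its sign rests on those pairs.

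The sham-sham arrays each compare 2 control kidneys, but their signs could not be tied to the named rats. Arrays R1, R2, R3, R4 and R6 form a closed loop of sham rats, so their values, added with the signs of the labels and with the dye effect taken off, should sum to 0 but for noise. Over 411 clones the variance of that sum was 0.194, against 0.189 for the summed variances of the 5 arrays, and 9 of the 16 possible patterns of signs gave a lower variance than that of the labels. Of 12 correlations between a sham-sham array and the pair that shares a sham rat with it, 7 had the sign the labels imply. The loop sum was -0.49 for Klk1b3 and 0.89 for Agt, and 24.8% and 6.08% of clones had sums at least as large. Sizes on these arrays are therefore given as a measure of spread, which holds array error as well as any difference between sham kidneys. The rat levels further on do use the labelled signs and carry this doubt.

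Klk1b3 on arrays R1 to R6 was 0.025, 0.056, 0.36, 0.028, 0.33 and 0.041, as channel 2 over channel 1. All were above 0, as the dye effect of this clone was, and R3 and R5 stood apart from the other 4. With the dye effect taken off they were -0.14, -0.11, 0.20, -0.14, 0.17 and -0.12. The pair values of A, B, E and F were larger in size than any of these, and those of C and D were not. Against the sham-sham values with the dye effect left in, the largest being 0.36 on R3, pair E at -0.35 was also not larger. A pair value averages 2 arrays and a sham-sham value is 1 array. On R5 the duplicate spots of Klk1b3 differed by 0.24, more than on any ARF-sham array.

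Agt on the same arrays was 0.30, -0.26, -0.33, -0.066, -0.14 and 0.13. In size these values had a median of 0.20 and reached 0.33, in the exchanged row order. How much of that lies between sham kidneys and how much is array error was not tested. In the deposited order the rows of Agt held 0.0028, -0.084, 0.047, 0.054 and 0.074 on R1, R2, R4, R5 and R6 and no value on R3. In the exchanged order, with the dye effect taken off the largest size was 0.39, and pairs B and D alone exceeded it. Duplicate spots of Agt differed by 0.31 on R4 and by 0.25 on R5, more than on any ARF-sham array.

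Levels of the 12 rats were also estimated from all 18 arrays, each array being the difference of 2 rats plus a dye term, to set ARF rats beside sham rats without the pairing. These levels rest on the labelled signs of the sham-sham arrays, which the loop did not bear out, and on the exchanged row order. Relative to the sham mean, Klk1b3 was -0.51, -0.90, -0.062, -0.21, -0.41 and -0.54 in ARF rats A to F. In sham rats A to F it was 0.13, -0.017, -0.085, -0.049, -0.068 and 0.092. As estimated, the groups overlapped through ARF rat C. The SD was 0.29 among ARF rats and 0.088 among sham rats, and the difference of -0.44 had a two-sided exact permutation p of 0.0065 over 924 groupings. That test treats the 12 levels as exchangeable, although the level of each ARF rat is its pair value added to the level of its sham rat, so its p can be too small. For both genes the SD among ARF rats also carries the error of the pair values and of the sham levels. It is therefore not directly comparable with the SD among sham rats. The paired exact sign-flip test gave 0.0625, and limma on the levels of 12 rats gave an adjusted p of 0.22 over 565 clones.

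For Agt the levels were 0.033, 0.65, 0.23, 0.36, -0.18 and 0.036 in ARF rats A to F, against -0.065, 0.21, 0.20, -0.10, -0.23 and -0.019 in sham rats A to F. The groups overlapped over most of their range, with an SD of 0.29 among ARF rats and 0.17 among sham rats (difference 0.19, two-sided exact permutation p = 0.20). Leaving out pair B gave 0.098 (exact permutation p = 0.40), and with the sham-sham columns in the deposited order the same difference of 0.19 had an exact permutation p of 0.026. ARF rat B had both the lowest Klk1b3 and the highest Agt of the 12. Arrays departed from these fits with an SD of 0.14 for Klk1b3 and 0.18 for Agt.

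**Figure D2:**
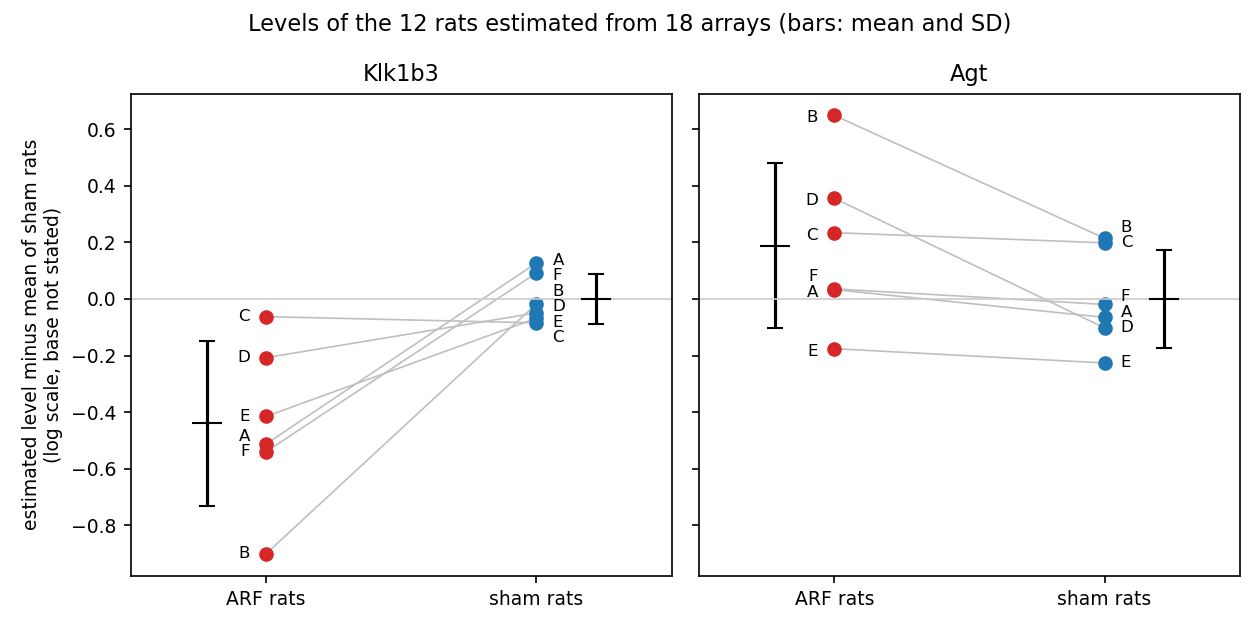
Estimated levels (vertical axis, log scale with base not stated, relative to the sham mean) of Klk1b3 and Agt in 6 ARF rats and 6 sham rats; letters name the pairs, grey lines join the rats of a pair, and bars give the mean and SD. For Klk1b3, 5 of 6 ARF rats lie below every sham rat and rat C lies among them, and for Agt the groups overlap.

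The other genes of these systems were read from lists of kallikrein-kinin, renin-angiotensin and further vasoactive genes. Of 21 kallikrein-kinin genes 2 were on the array and Klk1b3 alone was tested; the kinin receptor Bdkrb2 had no pair measured on both arrays. Of 26 renin-angiotensin genes 10 were on the array and 7, Agt itself among them, were tested. Of these, 5 were above 0 and 2 below, against 512 and 435 of all 947 clones, with 0 past the threshold (limma). Their median was 0.058, against 0.015 over all 947 clones, and Agt had the highest mean of the 7. Agt and the peptidase Prep had an unadjusted p under 0.05 (limma), as did 139 of all 947 clones (14.7%).

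Prep, prolyl endopeptidase, which cleaves angiotensin and kinin peptides, was -0.35 in pair A, -0.048 in B, -0.21 in C, -0.20 in D, -0.39 in E and -0.68 in F. It was below 0 in 6 of 6 pairs, as 5.17% of the clones measured in every pair were. Its mean was -0.31 ± 0.22 (n = 6; limma, adjusted p = 0.093).

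Enzymes that process angiotensin peptides further did not pass. The aminopeptidase Anpep had 0.092 ± 0.22 (n = 6; limma, adjusted p = 0.61). Neprilysin, Mme, which degrades kinins and makes angiotensin 1-7, had 0.11 ± 0.16 (n = 4; limma, adjusted p = 0.56). The oligopeptidase Thop1 had -0.0044 ± 0.11 (n = 4; limma, adjusted p = 0.98).

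The lysosomal proteases Ctsb and Ctsd had 0.033 ± 0.13 and 0.058 ± 0.37 (each n = 6; limma, adjusted p = 0.79 and 0.82). Of 41 further vasoactive genes 15 were on the array and 2 were tested. The endothelial growth factor Vegfa had 0.12 ± 0.15 (n = 5) and the glucocorticoid-inactivating enzyme Hsd11b2 -0.052 ± 0.14 (n = 6), with adjusted p of 0.49 and 0.69 (limma). Renin, converting enzyme and the angiotensin receptors were not analysed here.

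**Figure D3:**
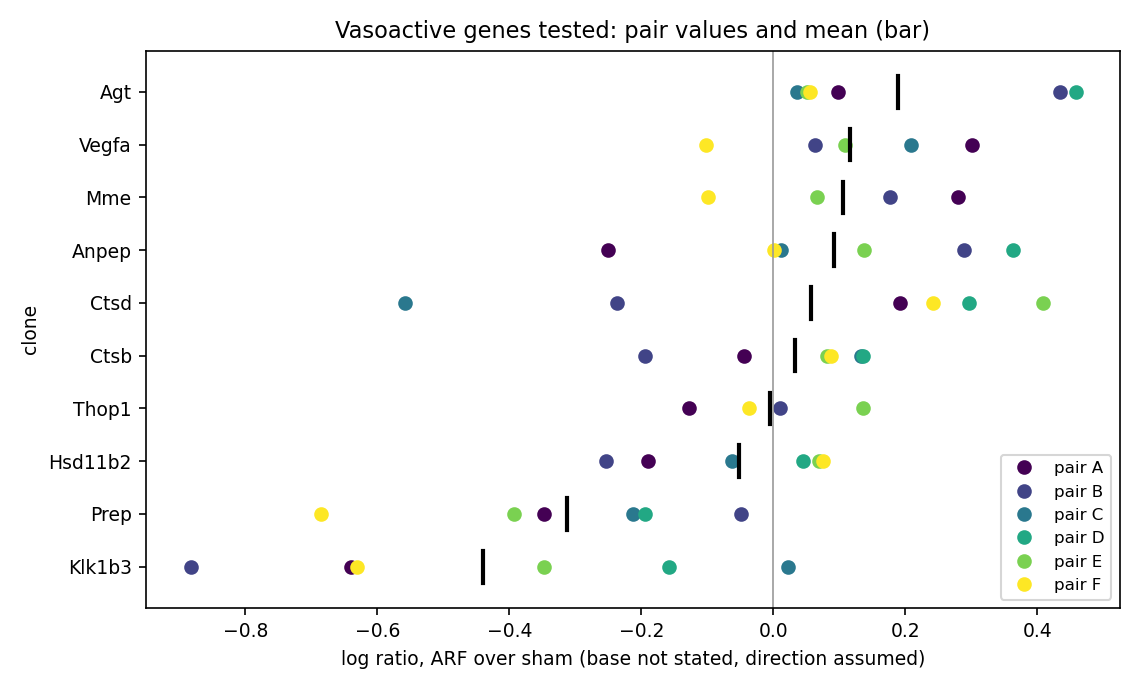
Log ratios (horizontal axis, ARF over sham assumed, base not stated) of the 10 vasoactive genes tested, with a point per pair and a bar at the mean. Klk1b3 and Prep lie lowest, and Agt highest, with its 2 largest values from pairs B and D.

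Klk1b3 was set beside genes of the thick limb and the segments after it. Of the 12 listed, 5 were tested, 3 below 0 and 2 above, with a median of -0.24, and 1 passed (0.950% of all clones did), the growth factor Egf at -0.34 ± 0.16 (n = 6; limma, adjusted p = 0.048). The thick limb cotransporter Slc12a1 had -0.31 ± 0.22 and Umod -0.24 ± 0.13 (each n = 6; limma, adjusted p = 0.093 and 0.098), while Slc12a3, the thiazide-sensitive cotransporter, had 0.12 ± 0.27 (n = 5; limma, adjusted p = 0.57) and Pvalb, the calcium-binding protein parvalbumin, 0.12 ± 0.11 (n = 6; limma, adjusted p = 0.36). The 3 below 0 include the thick limb genes Slc12a1 and Umod, and the 2 above 0 are genes of the distal convoluted tubule. Of all 947 clones, 435 were below 0. The connecting tubule, where kallikrein is mainly made, was not represented among the 5 tested. From the list, Calb1, Trpv5 and Slc8a1 were not on the array, and Atp2b1 was measured in both orientations in only 3 pairs. The median of the list was -0.21 in pair A, -0.12 in B, -0.20 in C, -0.15 in D, -0.16 in E and -0.45 in F. Egf was -0.34, -0.44, -0.20, -0.21, -0.25 and -0.60 in pairs A to F. It was lowest in F and B and nearest 0 in C and D, while Klk1b3 was lowest in B and A and nearest 0 in C and D.

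Agt was set beside genes of the proximal tubule in the same way. Of 17 listed, 9 were tested, 7 below 0 and 2 above, with a median of -0.13 and 0 past the threshold (limma). Over all clones, 435 of 947 were below 0. Cubn, Aqp1 and Hao2, 3 of the 9, had an unadjusted p under 0.05, all below 0, against 14.7% of all clones. In the pairs where Agt was high the median of this list was -0.051 (B) and -0.14 (D).

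Agt is also made by liver and fat. Of the 13 liver and acute phase genes on the array, transferrin, Tf, was the 1 tested, at 0.27 ± 0.38 (n = 6), and it was highest in pairs A, B and E and -0.0012 in pair D. Albumin, Apoa1, Ttr and the fibrinogen chains had no pair with values on both arrays. Among fat cell genes Fabp4 had -0.068 ± 0.73 and Lpl 0.0044 ± 0.095 (each n = 4, measured neither in pair B nor in pair D). Of the smooth muscle and renin cell list, the actin-binding protein Tagln alone was tested, at 0.76, 0.20, -0.033, 0.44 and 0.70 in pairs A, B, C, E and F. Its mean was 0.41 ± 0.33 (n = 5; limma, adjusted p = 0.13, unadjusted p = 0.0053), and it was highest in A and F, where Klk1b3 was low, and lowest in C, where Klk1b3 was at 0. In pair B, where Klk1b3 was lowest, it was the second lowest. Of the macrophage and MHC list, the class II molecule RT1-Ba alone was tested, at 0.37, 0.40, 0.25, 0.11, -0.22 and 0.54 in pairs A to F, with a mean of 0.24 ± 0.27 (limma, adjusted p = 0.25, unadjusted p = 0.024). Blood and endothelial lists had 0 clones tested. The part of such cells in the results for Klk1b3 and Agt was not tested.

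Clones with 1 symbol and values in all 6 pairs were ranked by how closely their pair values followed each gene. Of 419 clones compared with Klk1b3, 8 had a Pearson r over 0.9. The closest were the peroxisomal racemase Amacr (r = 0.96), carboxypeptidase D, Cpd (0.96), the small heat shock protein Hspb6 (0.94), the mitochondrial isomerase Eci1 (0.94) and the proteasome subunit Psmd4 (0.93). Amacr was below 0 in every pair, from -0.38 in pair B to -0.030 in pair D, with a mean of -0.21. The most opposed were the elongation factor Eef1a1 (r = -0.99), the tetraspanin Cd63 (-0.95) and Atp5pf, a subunit of ATP synthase (-0.93). Each r rests on 6 pairs that share their arrays, and a few high values among 419 clones are no result.

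The clones closest to Agt were the sialyltransferase St6gal1 (r = 0.96), the peptide transporter Slc15a2 (0.89), the small heat shock protein Cryab (0.88), Unc119 (0.87) and the ferritin chain Fth1 (0.84). Of these, 1 had an r over 0.9. St6gal1 had a mean of -0.38 and Cryab of -0.61, so these followed Agt in the order of the pairs and not in sign: pairs B and D were their least negative. The most opposed were the defensin Defb1 (r = -0.89), the lipid kinase Pi4kb (-0.85) and the kinase Mapk14 (-0.84).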

How the data were processed

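The authors deposited a log ratio of the 2 channels for each spot, per the labels normalized log values from ImaGene output; the other steps are not stated there. Empty cells (57.1%) were taken as spots the authors had filtered, and each array has a mean of 0. The 4608 rows were read as 2304 clones in duplicate, 1152 rows apart, and duplicates were averaged. Both dye orientations of a pair correlated above 0 over clones (r from 0.196 to 0.58), so none was turned. Pairs are those the labels name.

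The sham-sham columns hold values on other rows. Exchanging adjacent blocks of 288 rows, chosen after the values were seen, raised the correlation of where values are present to 0.70, against -0.014 as deposited. After the exchange, the dye effect of the pairs correlated over clones with the mean of the sham-sham arrays at r = 0.50, against 0.055 as deposited.

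Pair values were tested against 0 with limma 3.58.1 in R 4.3.3 (Benjamini-Hochberg over all clones tested, threshold 0.05), after a run on simulated data. Symbols came from the platform annotation, updated by gene identifier (1483 of 1489 clones with 1 symbol). Both genes and the lists were chosen with earlier results of these data known. Named are both genes, each tested vasoactive gene, and the 5 clones most like and the 3 least like each gene; Egf and other segment genes come from lists. The depth of an array is not a count, and the number of pairs limits the precision.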

Additional observations from a re-analysis of the deposited data

How the results depend on the processing

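Agt kept its sign and did not pass under any of 19 alternatives (log ratio 0.060 to 0.25, adjusted p 0.15 to 0.91). Klk1b3 stayed below 0 under all 19 and passed under 3: -0.60 with only sham in Cy5 (adjusted p = 0.042), -0.44 with the 12 arrays fitted with the pair as a replicate block and a dye term (adjusted p = 0.016), and -0.53 without pair C (adjusted p = 0.036); leaving out each pair gave -0.53 to -0.35. The block fit treats the 2 arrays of a pair as partly independent. With no replicate block (levels of 12 rats) the adjusted p was 0.22. Klk1b3 minus Agt was -0.53 with only sham in Cy3 and -0.75 to -0.49 with 1 pair left out. The rat levels of Agt differed by 0.098 to 0.26 with 1 pair left out, lowest without pair B, and by 0.19 with the sham-sham columns in the deposited order too (exact permutation p = 0.026); there Klk1b3 had no sham-sham value and no level could be fitted. The dye effects kept their side of the threshold in all 3 alternatives.

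The number of clones past the threshold moved most: 9 as reported, 16 with arrays centred on their medians, 5 with pairs kept on 1 orientation, 28 with only sham in Cy3, 15 with the second spot alone, 29 with the replicate block, 3 with no replicate block, and 0 to 19 with 1 pair left out. It was 0 with limma's trend and robust options (119 at an unadjusted p under 0.05) and with the unmoderated test (129), and 0 without pair E (68) or F (59), where limma was used.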
